A study of Mus musculus with 18 samples.

Results

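The receptor chains Ifnar1 and Ifnar2, the signal transducers Stat2 and Stat3, and the interferon regulatory factors Irf1, Irf2, Irf3 and Irf9 were followed across 18 RNA libraries of a mouse brown adipocyte line. With doxycycline (Dox), Stat2 was higher by 3.63-fold in vehicle (DMSO), 2.10-fold under isoproterenol (ISO) and 3.39-fold under SR-3420, and Irf9 by 3.99-, 2.33- and 2.66-fold. Irf1 was 1.87-fold higher in DMSO and 1.54-fold higher under SR-3420, with a ratio of 1.06 under ISO, the last above or below 1 depending on the libraries used. For both receptor chains, Stat3, Irf2 and Irf3 the ratio with Dox lay between 0.749 and 1.40 in every treatment. Stat3 instead followed the β-adrenergic agonist: ISO raised it 2.55-fold without Dox and 2.49-fold with Dox.

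The genes were chosen by name, as 9 interferon receptors, STATs and IRFs, with their Dox values in these libraries in view. Of the 9, 8 were analysed among the 17672 genes of the table, and all 8 passed the filter on low counts that left 10178 genes tested; Irf7 was not analysed here. Because the Dox contrasts were in view when the genes were chosen, their Dox values are given below as a description, with SE and no p, and how many of them passed the threshold is given only as counts, under the settings tried, from which nothing is read. The ISO and SR-3420 responses and the differences between them were tested.

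The cells were brown preadipocytes of 1 immortalised line, differentiated to adipocytes, and every group carried the same 2 constructs. The first was a stable shRNA against Abhd5, whose product is a co-activator of the fat-splitting lipase ATGL, and the second an mCherry-tagged ABHD5 that the shRNA does not target and that Dox switches on. The labels call the 9 libraries without Dox ABHD5 KD, and the 9 libraries with Dox (1 µg/ml, for 24 h by the study's account of this experiment and 24 to 48 h by the labels) are the re-expressing state. In either state cells received DMSO, ISO (10 nM) or SR-3420 (20 µM), a ligand of ABHD5 that promotes lipolysis without the agonist, for 3 h, with 3 libraries per group. Since each Dox group differs from its control both in Dox and in ABHD5, the drug and the protein cannot be told apart in any Dox comparison. The design held no library with Dox but without the inducible construct.

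Library totals ran from 689910 to 1956565 counts (median 1145729), and the median gene had 8 to 25 counts. The 10 highest genes took 16.3% to 26.5% of the counts in 17 libraries and 35.6% in SR-3420 with Dox replicate 1. Levels are given as CPM, counts scaled to library size, after correction by TMM factors. Abhd5 read 52.6 ± 4.71 CPM in DMSO without Dox and 574 ± 86.1 CPM with Dox (mean ± SD, n = 3), and its log2 fold change was 3.46 (SE 0.17). For 72.5% of the 16559 genes that could be matched, the bases counted lay within 10% of the intron length, and for 2.27% within 10% of the exon length. How far the levels report unspliced rather than mature RNA was not tested. For Abhd5, 24026 bases were counted. Whether its reads came from the inducible coding sequence or from the endogenous gene was not tested. The study's methods give 3 independent experiments, and the spread between libraries of a group is the error used throughout.

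Of the adipocyte markers, 6 of 8 were in the table, none at 0 in any group, and their summed level ran from 1923 to 2185 CPM in DMSO without Dox and from 2349 to 2549 CPM with Dox. Under ISO the sum was 1990 to 2272 CPM without and 4147 to 4218 CPM with Dox, and under SR-3420 2918 to 3122 and 3558 to 4599 CPM. With Dox, 5 of the 6 adipocyte markers passed as higher on the mean of the 3 treatments, beside 11.8% of all genes tested (20.5% passed in either direction), and of the brown adipocyte markers 4 of 6 tested did so; their part in the differences below was not tested. Ucp1, the uncoupling protein of brown fat, had at most 1 count in any DMSO library and 24 to 347 counts in the ISO libraries. Of the macrophage and leukocyte markers, 7 of 8 were in the table, and their summed level was 6.0 to 22.1 CPM over all 18 libraries. Lyz2 and Ptprc, which mark macrophages and leukocytes, had at most 2 counts in any library. The 4 endothelial markers summed to 5.34 to 16.2 CPM in DMSO without Dox and 21.0 to 25.8 CPM under ISO, and with Dox to 7.29 to 11.6 and 17.3 to 22.1 CPM. The 1 of them tested, Tek, passed as higher with ISO without Dox, by 1.25 (SE 0.38, adjusted p = 0.016 by edgeR), and with Dox, by 1.13 (SE 0.37, adjusted p = 0.0181 by edgeR). Of the preadipocyte markers 5 of 6 were in the table, and their sum was 142 to 167 CPM in DMSO and 104 to 109 CPM under ISO without Dox, and 151 to 173 and 105 to 151 CPM with Dox. Of the 3 tested, 1 passed as higher and 1 as lower with ISO without Dox, where 28% of all genes tested passed in either direction. With Dox 0 passed as higher and 1 as lower, beside 32.5% of all genes. The same shares apply to Tek. The part of these markers in the ISO differences was not tested. Fewer cells of a type and less RNA per cell cannot be told apart in such bulk libraries.

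Type I interferons bind a receptor built from the IFNAR1 and IFNAR2 chains, which carry the kinases TYK2 and JAK1. These kinases phosphorylate STAT proteins, among them STAT2, which joins IRF9 in the complex ISGF3, and ISGF3 binds a DNA element called ISRE in front of interferon target genes. STAT dimers bind a second element, GAS. STAT3 is the main mediator of the interleukin-6 family of cytokines, IRF3 and IRF7 switch on interferon genes after a virus is sensed, and IRF1 and IRF2 bind the same elements as an activator and mostly as a repressor. In adipocytes this pathway is known from antiviral defence and from the inflammation of obese fat.

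The promoter windows of 4 of the genes are shown to set the members with the largest Dox differences, Stat2, Irf9 and Irf1, beside Irf2, the only member with a match to both elements. Each window runs from 250 bases before the annotated start to 50 bases from it, 5′ to 3′ on the gene's strand, read from the mm9 genome. Capitals mark matches to ISRE, searched as GAAA, any 2 bases and GAAA, or to GAS, searched as TTC, any 3 bases and GAA, both on either strand and with overlaps allowed.
Stat2 (chr10:127707382-127707681, plus strand): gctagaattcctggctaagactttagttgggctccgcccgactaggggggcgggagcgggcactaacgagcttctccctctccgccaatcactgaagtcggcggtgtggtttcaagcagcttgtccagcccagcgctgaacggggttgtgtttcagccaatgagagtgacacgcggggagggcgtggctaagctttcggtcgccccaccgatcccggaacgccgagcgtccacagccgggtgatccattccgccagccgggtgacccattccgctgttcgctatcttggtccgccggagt
Irf9 (chr14:56222572-56222871, plus strand): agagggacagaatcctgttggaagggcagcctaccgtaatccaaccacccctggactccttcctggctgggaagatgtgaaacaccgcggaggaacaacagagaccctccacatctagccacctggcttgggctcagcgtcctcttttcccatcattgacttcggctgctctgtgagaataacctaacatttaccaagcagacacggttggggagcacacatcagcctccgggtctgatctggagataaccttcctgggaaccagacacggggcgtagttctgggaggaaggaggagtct
Irf1 (chr11:53583266-53583565, plus strand): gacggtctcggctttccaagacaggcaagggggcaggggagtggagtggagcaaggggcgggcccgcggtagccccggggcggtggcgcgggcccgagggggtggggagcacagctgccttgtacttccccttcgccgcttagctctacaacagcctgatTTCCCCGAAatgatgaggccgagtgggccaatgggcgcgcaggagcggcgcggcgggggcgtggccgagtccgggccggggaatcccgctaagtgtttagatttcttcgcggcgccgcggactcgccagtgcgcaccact
Irf2 (chr8:47824849-47825148, plus strand): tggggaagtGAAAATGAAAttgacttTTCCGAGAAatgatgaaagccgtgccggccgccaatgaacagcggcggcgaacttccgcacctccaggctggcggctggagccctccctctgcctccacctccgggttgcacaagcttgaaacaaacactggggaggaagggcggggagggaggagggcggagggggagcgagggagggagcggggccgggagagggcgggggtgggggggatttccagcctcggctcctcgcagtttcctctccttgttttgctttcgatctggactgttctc

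The Stat2 and Irf9 windows held no match to either pattern, nor did those of Stat3 and Irf3. The Irf1 window held a GAS match at positions -90 to -82, counted from the start as 0. In the Irf2 window an ISRE match lay at -241 to -232 and a GAS match at -224 to -216. A GAS match also stood in the windows of Ifnar1, at -5 to 3, and of Ifnar2, at -214 to -206. ISRE was therefore matched in 1 of 8 and GAS in 4 of 8 windows, while 3.21% and 7.31% of the 17672 windows of the whole table held them. Among 30 interferon target genes, such as Isg15 and Rtp4, 53.3% of windows held an ISRE match. A match to letters describes the window only and shows no binding.

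**Figure D1:**
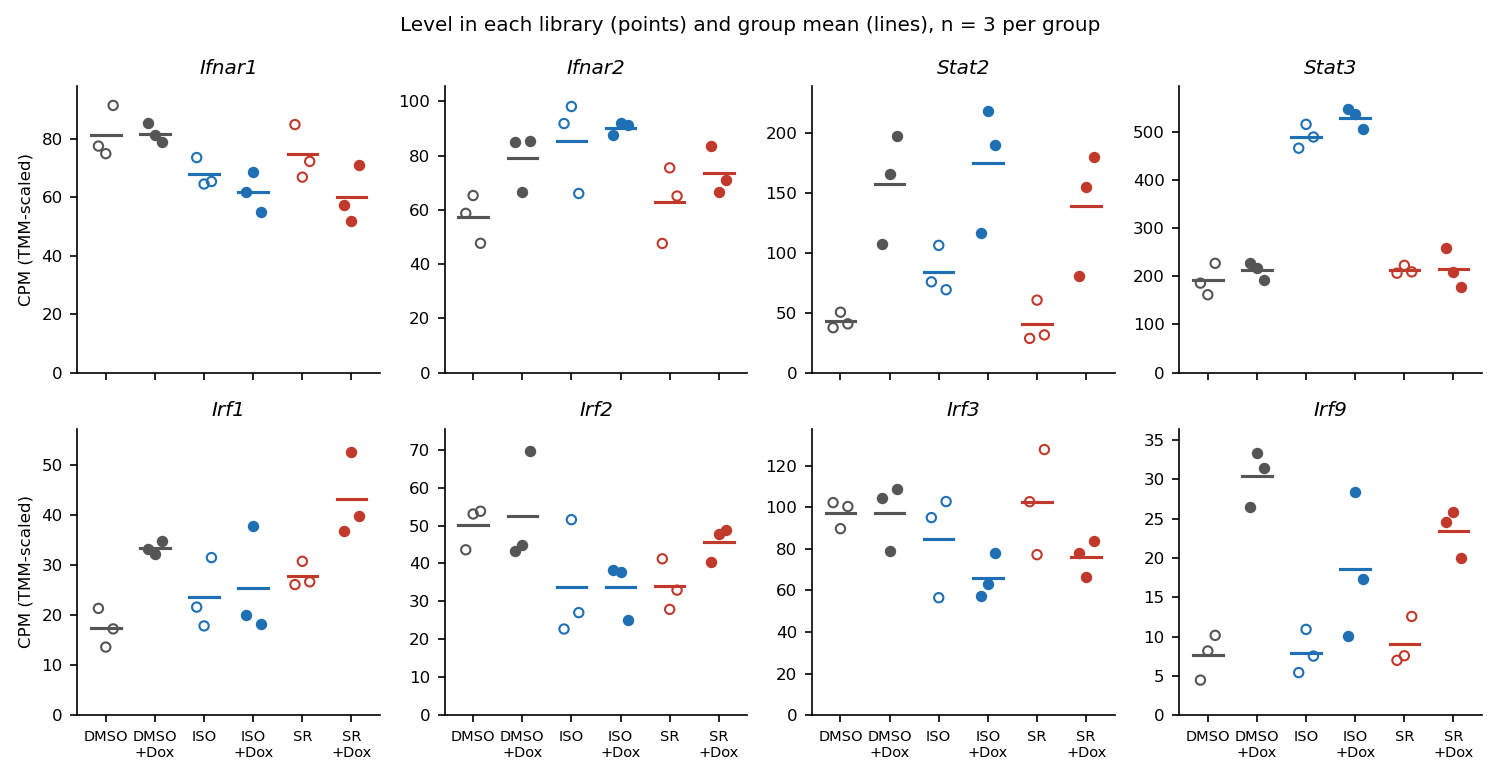
Level of each of the 8 genes in every library, in CPM on the TMM-scaled library total, by treatment and Dox. Points are libraries (open without Dox, filled with Dox), lines are means of 3. Stat2 libraries with Dox lie above those without Dox in all 3 treatments, and the 6 ISO libraries of Stat3 lie above the other 12.

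The ratio of the receptor chains with Dox ran from 0.802 (Ifnar1 under SR-3420) to 1.40 (Ifnar2 in DMSO). Ifnar1 (NM_010508, chromosome 16, 91485460 to 91510767, plus strand, 12100 bases counted; all positions are of mm9, starts counted from 1) encodes the chain that carries TYK2. In DMSO, Ifnar1 read 77.4, 74.8 and 91.3 CPM in the 3 libraries without Dox and 85.2, 81.2 and 78.6 CPM with Dox. Under ISO, Ifnar1 read 73.5, 64.4 and 65.3 CPM without Dox and 61.7, 68.5 and 54.9 CPM with Dox. Under SR-3420, Ifnar1 read 84.8, 66.8 and 72.2 CPM without Dox and 57.1, 51.7 and 70.9 CPM with Dox. The groups with and without Dox overlapped in each treatment, and the log2 fold change with Dox was 0.01 (SE 0.15) in DMSO, -0.13 (SE 0.16) under ISO and -0.32 (SE 0.16) under SR-3420. Ifnar1 did fall under ISO in cells with Dox, by 0.41 (SE 0.15, adjusted p = 0.0433 by edgeR) on the log2 scale, and its 3 ISO libraries lay below the 3 DMSO libraries. Without Dox the same difference was -0.27 (-0.59 to 0.06), in log2 with its 95% interval, and did not pass. The call in cells with Dox was lost in 14 of 26 alternative settings, among them the fits without DMSO with Dox replicate 1, 2 or 3 and without ISO with Dox replicate 1 or 3, with log2 fold changes of -0.42 to -0.31. SR-3420 with Dox gave -0.46 (-0.78 to -0.13) for Ifnar1, with 3 of 3 libraries below DMSO, and did not pass (adjusted p = 0.064 by edgeR). It did pass with the replicate block, at -0.45 (SE 0.15, adjusted p = 0.034 by edgeR), with library totals only, when every library had to hold at least 10 counts, and when replicate 3 of SR-3420 with Dox was left out.

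Ifnar2 (NM_010509, chromosome 16, 91373028 to 91405832, plus strand, 28096 bases counted) encodes the high-affinity ligand-binding chain that carries JAK1. In DMSO, Ifnar2 read 58.7, 65.3 and 47.7 CPM in the 3 libraries without Dox and 85.2, 66.6 and 85.4 CPM with Dox. Under ISO, Ifnar2 read 91.9, 98.2 and 66.1 CPM without Dox and 87.5, 92.2 and 91.4 CPM with Dox. Under SR-3420, Ifnar2 read 47.6, 75.5 and 65.1 CPM without Dox and 83.5, 66.6 and 70.9 CPM with Dox. In DMSO the libraries with Dox lay just above those without, the highest without Dox at 65.3 CPM and the lowest with Dox at 66.6 CPM, while under ISO and SR-3420 the groups overlapped. The log2 fold change of Ifnar2 with Dox was 0.49 (SE 0.19) in DMSO, 0.10 (SE 0.17) under ISO and 0.24 (SE 0.18) under SR-3420. ISO raised Ifnar2 in cells without Dox by 0.57 (SE 0.19, adjusted p = 0.0244 by edgeR) on the log2 scale, with 3 of 3 ISO libraries above the DMSO libraries. The call was lost without DMSO without Dox replicate 1 or 3 or ISO without Dox replicate 1 or 2 (log2 fold changes of 0.45 to 0.59), and with library totals only (0.40, adjusted p = 0.135 by edgeR). With Dox the ISO difference of Ifnar2 was 0.18 (-0.17 to 0.54) and did not pass.

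Stat2 (NM_019963, chromosome 10, 127707632 to 127729905, plus strand, 17623 bases counted) encodes the STAT that is specific to type I and type III interferon signalling and brings the activation domain to ISGF3. In DMSO, Stat2 read 37.4, 50.3 and 40.6 CPM in the 3 libraries without Dox and 107, 166 and 198 CPM with Dox. Under ISO, Stat2 read 75.6, 106 and 69.1 CPM without Dox and 117, 218 and 189.6 CPM with Dox. Under SR-3420, Stat2 read 28.4, 60.4 and 31.4 CPM without Dox and 80.9, 155 and 179.8 CPM with Dox. In each treatment every library with Dox was above every library without Dox. Group means of Stat2 went from 42.8 ± 6.75 to 157 ± 45.8 CPM in DMSO, from 83.6 ± 19.8 to 175 ± 52.3 CPM under ISO and from 40.1 ± 17.7 to 139 ± 51.5 CPM under SR-3420 (SD over 3 libraries), and the log2 fold changes were 1.86 (SE 0.30) in DMSO, 1.07 (SE 0.27) under ISO and 1.76 (SE 0.28) under SR-3420. Within each treatment with Dox, replicate 1 was the lowest of the 3. ISO raised Stat2 in cells without Dox by 0.98 (SE 0.32, adjusted p = 0.0227 by edgeR), and the 3 libraries lay above the DMSO libraries. This call was lost without DMSO without Dox replicate 1 (0.88) or 3 (0.95), without ISO without Dox replicate 2 (0.78) with DESeq2 (adjusted p = 0.0544) and with library totals only (0.79, adjusted p = 0.0502 by edgeR). With Dox the ISO difference was 0.19 (-0.32 to 0.70), and the difference between these responses, -0.79 (-1.62 to 0.05), did not pass (adjusted p = 0.384 by edgeR). With the replicate block the difference between the responses was -0.77 (-1.27 to -0.27) and did not pass either (adjusted p = 0.0557 by edgeR). SR-3420 against DMSO gave -0.06 (-0.74 to 0.63) without Dox and -0.15 (-0.68 to 0.37) with Dox for Stat2, neither of which passed.

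Stat3 (NM_213660, chromosome 11, 100748124 to 100800825, minus strand, 43317 bases counted) encodes the transducer of the interleukin-6 family and of leptin. In DMSO, Stat3 read 186, 162 and 227 CPM in the 3 libraries without Dox and 227, 218 and 193 CPM with Dox. Under ISO, Stat3 read 467, 517 and 490.1 CPM without Dox and 549, 537 and 506 CPM with Dox. Under SR-3420, Stat3 read 207, 223 and 209 CPM without Dox and 258, 209 and 179 CPM with Dox. The ISO libraries lay between 467 and 549 CPM and all others between 162 and 258 CPM, with no overlap, whereas libraries with and without Dox overlapped in every treatment. ISO raised Stat3 by 1.35 (SE 0.14, adjusted p = 2.6e-08 by edgeR) without Dox and by 1.31 (SE 0.14, adjusted p = 1.63e-08 by edgeR) with Dox. The log2 fold change of Stat3 with Dox was 0.15 (SE 0.14) in DMSO, 0.11 (SE 0.13) under ISO and 0.02 (SE 0.14) under SR-3420; the last read -0.13 when replicate 1 of SR-3420 with Dox was left out and -0.22 with library totals only. The ISO response with Dox minus that without Dox was -0.04 (-0.44 to 0.36) and did not pass, with its 95% interval in parentheses. SR-3420 against DMSO gave 0.15 (-0.14 to 0.44) without Dox and 0.01 (-0.28 to 0.31) with Dox, neither of which passed.

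**Figure D2:**
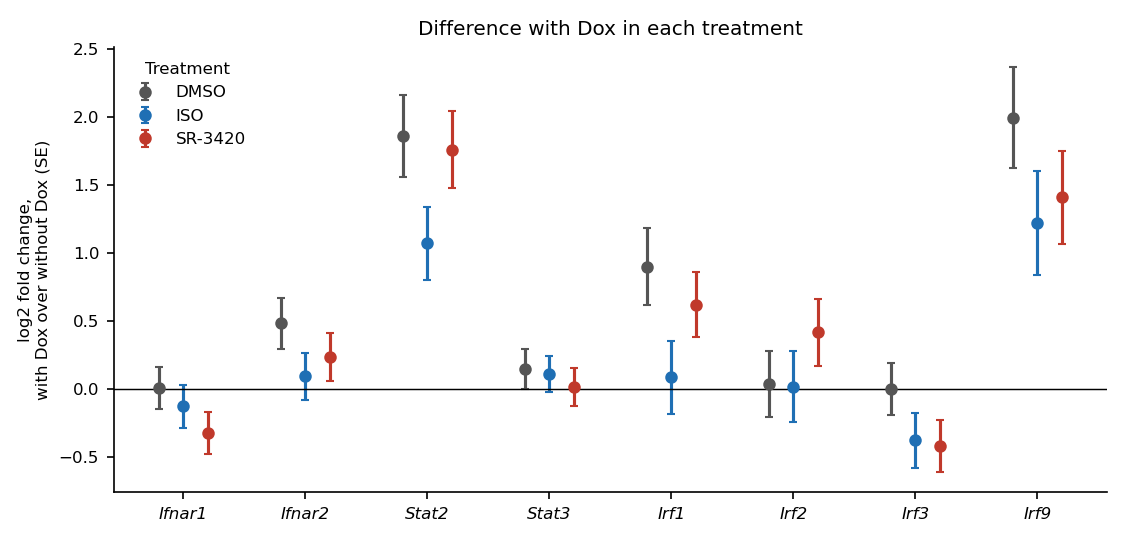
Log2 fold change of each gene with Dox over without Dox in DMSO, ISO and SR-3420, from the edgeR fit over all 18 libraries; bars are SE. Stat2 (1.07 to 1.86) and Irf9 (1.22 to 2.00) stand above the other 6 genes in each treatment, while Stat3 lies between 0.02 and 0.15.

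Irf9 (NM_008394, chromosome 14, 56222822 to 56228867, plus strand, 1404 bases counted) encodes the DNA-binding subunit of ISGF3. In DMSO, Irf9 read 4.45, 8.16 and 10.1 CPM in the 3 libraries without Dox and 26.5, 33.3 and 31.5 CPM with Dox. Under ISO, Irf9 read 5.40, 10.9 and 7.51 CPM without Dox and 10.0, 28.4 and 17.3 CPM with Dox. Under SR-3420, Irf9 read 6.97, 7.55 and 12.6 CPM without Dox and 24.6, 25.8 and 20.0 CPM with Dox. With Dox the DMSO and SR-3420 libraries were all above their controls, but under ISO 1 library with Dox, replicate 1, lay inside the range of those without. Means of Irf9 went from 7.59 ± 2.89 to 30.4 ± 3.53 CPM in DMSO, from 7.94 ± 2.78 to 18.6 ± 9.24 CPM under ISO and from 9.02 ± 3.07 to 23.5 ± 3.10 CPM under SR-3420 (SD over 3 libraries), and the log2 fold changes were 2.00 (SE 0.37) in DMSO, 1.22 (SE 0.38) under ISO and 1.41 (SE 0.34) under SR-3420. The counts behind these values were low, 5 to 16 per library without Dox and 12 to 55 with Dox. The lowest level with Dox was again in replicate 1 in DMSO and under ISO, though not under SR-3420, where it was replicate 3. Irf9 did not pass in an ISO or SR-3420 comparison as fitted here: the ISO difference was 0.10 (-0.86 to 1.06) without and -0.67 (-1.29 to -0.06) with Dox, and the SR-3420 difference 0.24 (-0.65 to 1.13) and -0.34 (-0.95 to 0.26). With the replicate number as a block, Irf9 did pass for ISO with Dox, at -0.73 (SE 0.27, adjusted p = 0.0247 by edgeR), and it was lower with ISO in each of the 3 same-numbered pairs; it also passed with library totals only and without ISO with Dox replicate 2.

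Irf1 (NM_001159393, chromosome 11, 53583516 to 53591876, plus strand, 2495 bases counted) encodes an activator that is itself a classic early target of interferon. In DMSO, Irf1 read 21.4, 13.6 and 17.2 CPM in the 3 libraries without Dox and 33.2, 32.3 and 34.8 CPM with Dox. Under ISO, Irf1 read 21.6, 17.8 and 31.5 CPM without Dox and 20.0, 37.8 and 18.3 CPM with Dox. Under SR-3420, Irf1 read 26.1, 30.8 and 26.7 CPM without Dox and 36.9, 52.7 and 39.9 CPM with Dox. The groups did not overlap in DMSO or under SR-3420, and they overlapped under ISO, where 1 library with Dox (replicate 2) read 37.8 CPM and the other 2 lay among those without Dox. Means of Irf1 went from 17.4 ± 3.88 to 33.4 ± 1.29 CPM in DMSO, from 23.7 ± 7.07 to 25.4 ± 10.8 CPM under ISO and from 27.9 ± 2.54 to 43.2 ± 8.37 CPM under SR-3420 (SD over 3 libraries), and the log2 fold changes were 0.90 (SE 0.28) in DMSO, 0.09 (SE 0.27) under ISO and 0.62 (SE 0.24) under SR-3420. The ISO value turned with the libraries used: it was -0.31 without ISO with Dox replicate 2 and 0.40 without ISO without Dox replicate 3. The Dox difference under ISO minus that in DMSO was -0.81 (-1.62 to -0.01) and did not pass over all genes tested (adjusted p = 0.343 by edgeR). ISO against DMSO gave 0.44 (SE 0.30, adjusted p = 0.292 by edgeR) without Dox and -0.37 (SE 0.25, adjusted p = 0.271 by edgeR) with Dox for Irf1, neither of which passed, and the latter did pass without ISO with Dox replicate 2. Under SR-3420, Irf1 lay above DMSO in 3 of 3 libraries both without Dox, 0.65 (0.07 to 1.22), and with Dox, 0.37 (-0.12 to 0.85), and neither difference passed (adjusted p = 0.476 and 0.393 by edgeR).

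Irf2 (NM_008391, chromosome 8, 47825099 to 47932812, plus strand, 99886 bases counted) encodes the factor that competes with IRF1 for its sites. In DMSO, Irf2 read 43.6, 53.1 and 53.8 CPM in the 3 libraries without Dox and 43.3, 44.8 and 69.7 CPM with Dox. Under ISO, Irf2 read 22.7, 51.6 and 27.0 CPM without Dox and 38.3, 37.8 and 25 CPM with Dox. Under SR-3420, Irf2 read 41.2, 27.9 and 33.0 CPM without Dox and 40.4, 47.7 and 48.9 CPM with Dox. Libraries with and without Dox overlapped in every treatment, and the log2 fold change of Irf2 with Dox was 0.04 (SE 0.24) in DMSO, 0.02 (SE 0.26) under ISO and 0.42 (SE 0.24) under SR-3420. Its ISO differences, -0.57 (-1.10 to -0.04) without Dox and -0.59 (-1.09 to -0.09) with Dox, were both below 0 and did not pass (adjusted p = 0.0997 and 0.0653 by edgeR). With the replicate block the ISO difference with Dox passed, at -0.59 (SE 0.22, adjusted p = 0.0344 by edgeR), and with library totals only both ISO differences of Irf2 passed. Both also passed without ISO without Dox replicate 2, and the difference with Dox passed with no filter on low counts and without DMSO with Dox replicate 1. Without ISO without Dox replicate 2 the Dox value under ISO was 0.46. SR-3420 against DMSO gave -0.55 (-1.05 to -0.05) for Irf2 without Dox, with 3 of 3 libraries below DMSO. With Dox it gave -0.17 (-0.66 to 0.32), and neither difference passed (adjusted p = 0.493 and 0.738 by edgeR).

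Irf3 (NM_016849, chromosome 7, 52253018 to 52258218, plus strand, 2574 bases counted) encodes the factor that the kinase TBK1 activates after viral nucleic acid is sensed. In DMSO, Irf3 read 102, 89.8 and 100.4 CPM in the 3 libraries without Dox and 104, 79.1 and 109 CPM with Dox. Under ISO, Irf3 read 95.1, 56.5 and 103 CPM without Dox and 57.5, 63.0 and 78.0 CPM with Dox. Under SR-3420, Irf3 read 103, 77.2 and 128 CPM without Dox and 78.2, 66.6 and 83.9 CPM with Dox. The groups with and without Dox overlapped in DMSO, ISO and SR-3420, with log2 fold changes of 0.00 (SE 0.19) in DMSO, -0.37 (SE 0.20) under ISO and -0.42 (SE 0.19) under SR-3420. Under SR-3420 Irf3 was lower with Dox in each of the 3 same-numbered pairs, and read -0.41 (SE 0.14) with the replicate block. In cells with Dox, Irf3 fell under ISO by 0.57 (SE 0.20, adjusted p = 0.0259 by edgeR), all 3 libraries below those with DMSO. The call was lost without DMSO with Dox replicate 1 or 3 or ISO with Dox replicate 1 or 2 (log2 fold changes of -0.52 to -0.48). Without Dox the ISO difference of Irf3 was -0.20 (-0.60 to 0.21), and the difference between the ISO responses, -0.38 (-0.95 to 0.20), did not pass.

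Between genes, levels were compared only per kilobase counted. In DMSO without Dox, Irf3 was highest at 37.9 ± 2.63 CPM per kb (SD, n = 3) and Irf2 lowest at 0.502 ± 0.0568. Irf1 (6.97 ± 1.55), Ifnar1 (6.71 ± 0.733) and Irf9 (5.40 ± 2.06) followed Irf3 and did not differ from each other beyond their SD. Stat3 (4.43 ± 0.763) came next, within the spread of Irf9, and then Stat2 (2.43 ± 0.383) and Ifnar2 (2.04 ± 0.317), whose ranges of 1 SD around the mean overlapped. With Dox, Irf9 stood next to Irf3 at 21.7 ± 2.52 CPM per kb, followed by Irf1 at 13.4 ± 0.518 and then Stat2 at 8.90 ± 2.60 and Ifnar1 at 6.75 ± 0.274, which did not differ beyond the SD of Stat2. These lengths are the bases the table gives as counted, and for 4 of the 8 genes they differ by over 10% from the intron length in the GENCODE annotation of mm9: Irf1 (2495 counted, 4385 intron), Irf9 (1404 and 1074), Ifnar1 (12100 and 19429) and Irf3 (2574 and 2014). With another length these genes would take another place in the order.

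**Figure D3:**
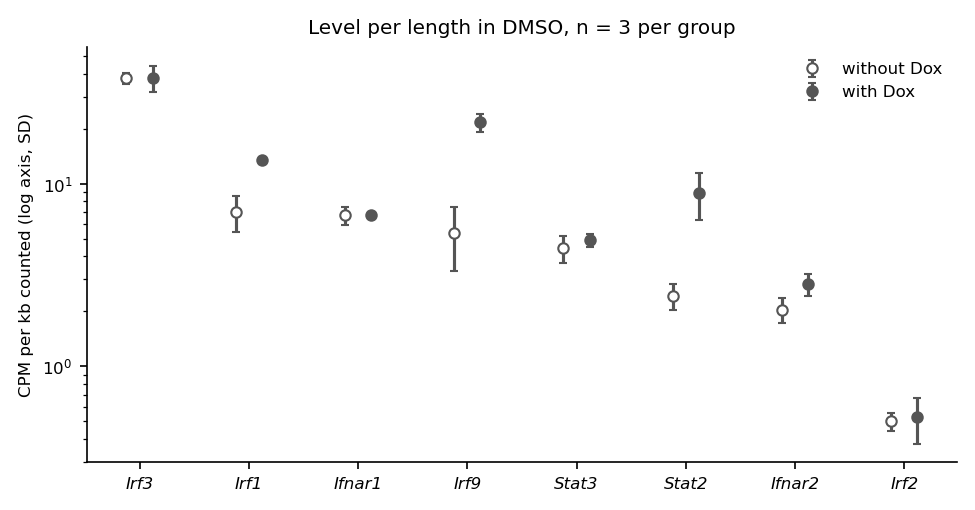
Mean level per kilobase counted in DMSO, on a log axis, with bars of 1 SD over 3 libraries, open without Dox and filled with Dox, ordered by the level without Dox. Irf9 moves from 5.40 to 21.7 CPM per kb and Stat2 from 2.43 to 8.90.

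Counted over the 8 genes, 2 passed as higher with Dox in DMSO, where 1.09% of all genes tested did so and 1.18% passed in either direction. Under ISO 2 passed as higher, beside 7.92% of all genes (12.7% in either direction), and under SR-3420 also 2, beside 7.26% (11.5% in either direction). On the mean of the treatments 3 passed as higher, beside the 11.8% given above, and none as lower in this fit. Stat2 and Irf9 passed in all 3 treatments, as did 0.865% of all genes, and Irf1 passed on the mean only. With library totals only, Irf1 no longer passed on the mean and Irf3 did, as lower. Irf9 no longer passed under ISO when ISO without Dox replicate 1 (1.04) or 3 (1.18) or ISO with Dox replicate 2 (0.78) was left out. Libraries with Dox lay wholly above those without for 4 of the 8 in DMSO, 1 under ISO and 3 under SR-3420, where 7.98%, 14.7% and 15.4% of all genes did so, and in all 3 treatments for Stat2 alone, beside 1.88%. As the genes were chosen with these contrasts in view, nothing is read from these counts. The median log2 fold change of the 8 with Dox was 0.32 in DMSO, 0.09 under ISO and 0.33 under SR-3420, and that of all genes tested lay within 0.02 of 0 in each.

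In the tested comparisons, ISO raised 3 of the 8 genes without Dox (Stat3, Stat2 and Ifnar2) and lowered none, where 14.5% of all genes tested rose and 28% passed in either direction. With Dox, ISO raised 1 (Stat3) and lowered 2 (Ifnar1 and Irf3), where 16.4% rose, 16.1% fell and 32.5% passed in all. Within each Dox state the ISO and SR-3420 comparisons share their DMSO libraries. As fitted here, SR-3420 changed none of the 8 by edgeR, without Dox (0.766% of all genes passed) or with Dox (9.9%), where 2 and 1 of the 8 had an unadjusted p under 0.05 and 0 passed with DESeq2; the 1 with Dox was Ifnar1, which passed in the alternatives named in its own account. No member passed a test of whether its response differed with Dox, for ISO (2.18% of genes passed, 1 member at an unadjusted p under 0.05) or for SR-3420 (0.757%, 0 members), and DESeq2 passed 0 in both. The ISO term was below 0 for all 8, from -0.81 for Irf1 to -0.02 for Irf2, and for 6 of 8 when libraries were scaled by their totals only. The 95% interval of this term was widest for Irf9, -1.92 to 0.37, and ran from -0.44 to 0.36 for Stat3.

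**Figure D4:**
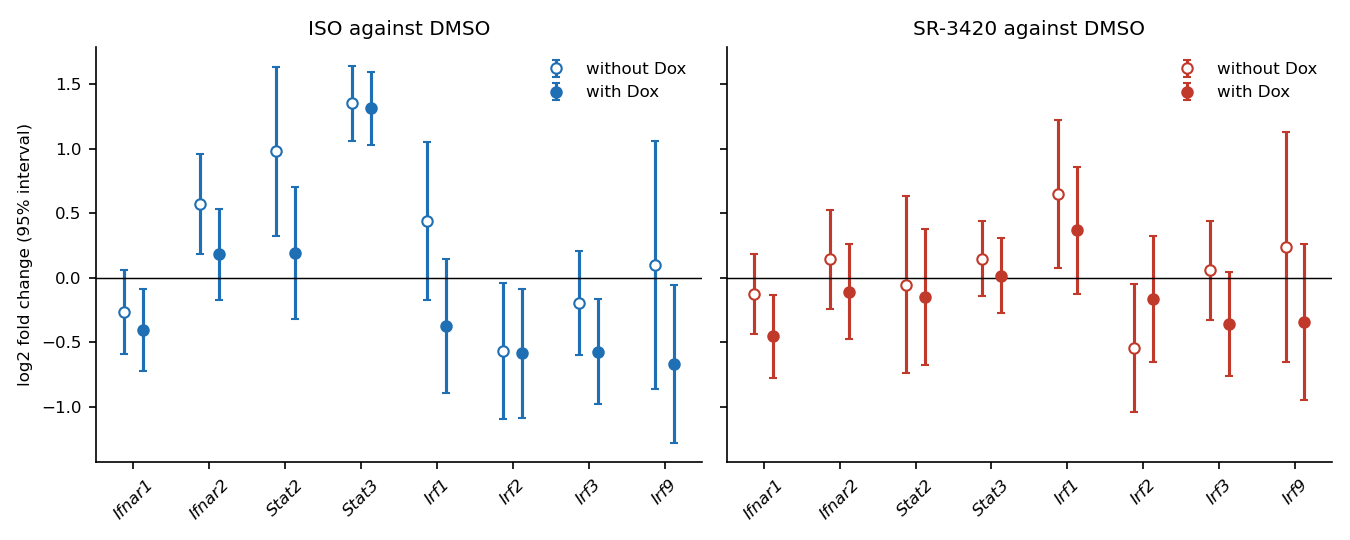
Log2 fold change of each gene against DMSO with ISO (left) and SR-3420 (right), open without Dox and filled with Dox; bars are 95% intervals of the edgeR fit. The Stat3 intervals under ISO lie wholly above 1, and those of Irf9 under SR-3420 span 0.

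The genes around them in the pathway were counted by list. Of 21 interferon ligands only Ifng was analysed here, with 0 counts in every library, which by counting error alone allows up to 4.35 unscaled CPM in the smallest library (3 counts). Of the other interferon receptor chains 3 of 5 were tested and 1 passed in a Dox contrast, where 1.18% of all genes passed in DMSO, 12.7% under ISO and 11.5% under SR-3420: Ifngr1, of the interferon-γ receptor, rose under ISO by 0.60 (SE 0.18, adjusted p = 0.0227 by edgeR). Of the 4 JAK kinases none passed in DMSO, 1 under ISO and 2 under SR-3420, beside the same shares: Jak2 fell with Dox by 0.68 (SE 0.17, adjusted p = 0.00795 by edgeR) under ISO and by 0.69 (SE 0.19, adjusted p = 0.0171 by edgeR) under SR-3420, and read -0.10 (SE 0.18) in DMSO. Jak1 rose under SR-3420 by 0.62 (SE 0.18, adjusted p = 0.0218 by edgeR); it overlaps Raver2 on the other strand, and no source used here says whether reads were counted by strand. Irf5 and Irf8 were analysed but had at most 4 counts in any library and were not tested. Leaving out 1 of several libraries ended the calls of Ifngr1 (4 of the 6 ISO libraries, log2 fold changes of 0.53 to 0.58) and of Jak1 (SR-3420 without Dox replicate 1 or 3 or with Dox replicate 1, 0.53 to 0.61). With library totals only neither passed, at 0.55 for Ifngr1 and 0.39 for Jak1 (adjusted p = 0.0824 and 0.157 by edgeR). For Jak2 it was ISO with Dox replicate 3 (-0.57), and under SR-3420 replicate 2 without Dox (-0.66) or replicate 1 (-0.55) or 2 (-0.57) with Dox.

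Irf2bp2 (NM_001164598), which encodes a co-repressor first found as a partner of IRF2, was the 1 tested gene of 3 listed IRF2-binding proteins, so the shares just given apply to it too. With Dox it read 0.39 (SE 0.27) in DMSO, and it rose by 1.88 (SE 0.23, adjusted p = 9.82e-07 by edgeR) under ISO and by 1.82 (SE 0.21, adjusted p = 6.76e-07 by edgeR) under SR-3420. Its mean level was 14.0 ± 3.52 CPM in DMSO without Dox, 53.2 ± 7.18 under ISO with Dox and 56.1 ± 10.1 under SR-3420 with Dox (SD, n = 3). Irf2 itself read 0.04, 0.02 and 0.42 in log2 with Dox in these treatments. Of 7 IRF-activating kinases and adaptors, such as Tbk1 and Myd88, none passed in a Dox contrast by edgeR or DESeq2, beside 1.18%, 12.7% and 11.5% of all genes by edgeR, with 0, 0 and 1 at an unadjusted p under 0.05 in DMSO, ISO and SR-3420.

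Of the JAK-STAT inhibitors 10 of 13 were tested, and with Dox 1 rose and 0 fell in DMSO (1.18% of all genes passed in either direction), 2 rose and 1 fell under ISO (12.7%), and 3 rose and 1 fell under SR-3420 (11.5%). DESeq2 passed 1, 2 and 2 of the 10. Usp18, which binds IFNAR2 and blocks the receptor, read 12.5, 10.9 and 8.12 CPM in DMSO without Dox and 69.8, 162 and 136 CPM with Dox, a log2 fold change of 3.48 (SE 0.42, adjusted p = 3.21e-06 by edgeR). Under SR-3420 the E3 ligase gene Pias3 fell by 0.74 (SE 0.21, adjusted p = 0.0179 by edgeR) with Dox and the phosphatase gene Ptpn11 rose by 0.50 (SE 0.16, adjusted p = 0.0346 by edgeR). Pias3 overlaps Nudt17 on the other strand. The others that passed, named after their values were seen, were Cish (0.74 (SE 0.23)) and Ptpn1 (-0.82 (SE 0.15)) under ISO and Pias1 (0.65 (SE 0.17)) under SR-3420. Of the STAT3-coupled receptors, 5 of 6 were tested: Osmr fell with Dox under ISO by 0.47 (SE 0.14, adjusted p = 0.0218 by edgeR) and Il11ra1 under SR-3420 by 0.73 (SE 0.24, adjusted p = 0.0416 by edgeR). Il11ra1 overlaps Ccl27a on the other strand. Of the 5, ISO raised Osmr and Il6st and lowered none without Dox, and with Dox it raised these 2 and lowered Il6ra, Lifr and Il11ra1 (28% and 32.5% of all genes passed). The ISO difference of Osmr was 1.15 (SE 0.14, adjusted p = 5.7e-07 by edgeR) without Dox and 0.71 (SE 0.14, adjusted p = 0.000308 by edgeR) with Dox, and the median of the 5 was -0.35 and -0.88. The Dox calls of Pias3, Ptpn11, Osmr and Il11ra1 were each lost on leaving out any 1 of 4 or 5 of the 6 libraries compared, with log2 fold changes of -0.72 to -0.60 for Pias3, 0.41 to 0.50 for Ptpn11, -0.48 to -0.42 for Osmr and -0.77 to -0.61 for Il11ra1. With DESeq2, Pias3 (adjusted p = 0.0569), Ptpn11 (0.0866) and Il11ra1 (0.109) did not pass, and with library totals only Ptpn11 read 0.26 (adjusted p = 0.311 by edgeR). Cish did not pass with DESeq2 (0.074), with library totals (0.0629) or without any 1 of 4 of the 6 ISO libraries (0.66 to 0.75), and Pias1 read 0.43 and did not pass with library totals.

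Of 30 interferon target genes, which include antiviral effectors, 27 passed the filter on low counts, and 24 rose with Dox in DMSO, 24 under ISO and 26 under SR-3420, beside 1.09%, 7.92% and 7.26% of all genes, with none lower. A gene near 0 without Dox could pass this filter through its libraries with Dox alone, which leans these counts towards a rise. The median log2 fold change of the 27 was 2.67, 2.49 and 2.34, beside a median within 0.02 of 0 for all genes tested. Oasl2, Bst2 and Rtp4 had the smallest p of the list on the mean of the treatments, with log2 fold changes of 3.55 (SE 0.24, adjusted p = 2.47e-12 by edgeR), 3.20 (SE 0.18, adjusted p = 1.03e-13 by edgeR) and 3.66 (SE 0.22, adjusted p = 3.87e-13 by edgeR). In DMSO, Bst2, which tethers budding virus, read 14.2, 15 and 20.3 CPM without Dox and 104, 183 and 155 CPM with Dox. The list was drawn up with earlier results of these data known and is no independent evidence of direction. ISO without Dox changed none of the 27 by edgeR, where 28% of all genes passed (0 at an unadjusted p under 0.05, 0 by DESeq2), and with Dox, where 32.5% passed, 1 rose (Oasl1, 1.09 (SE 0.33)) and 1 fell (Gbp3, -0.999, SE 0.36), both named after their values were seen. Oasl1 was lost without DMSO with Dox replicate 1 (0.66) or ISO with Dox replicate 2 (0.96) or 3 (0.99), and Gbp3 with DESeq2 (adjusted p = 0.221) or without any 1 of 4 of the 6 libraries.

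**Figure D5:**
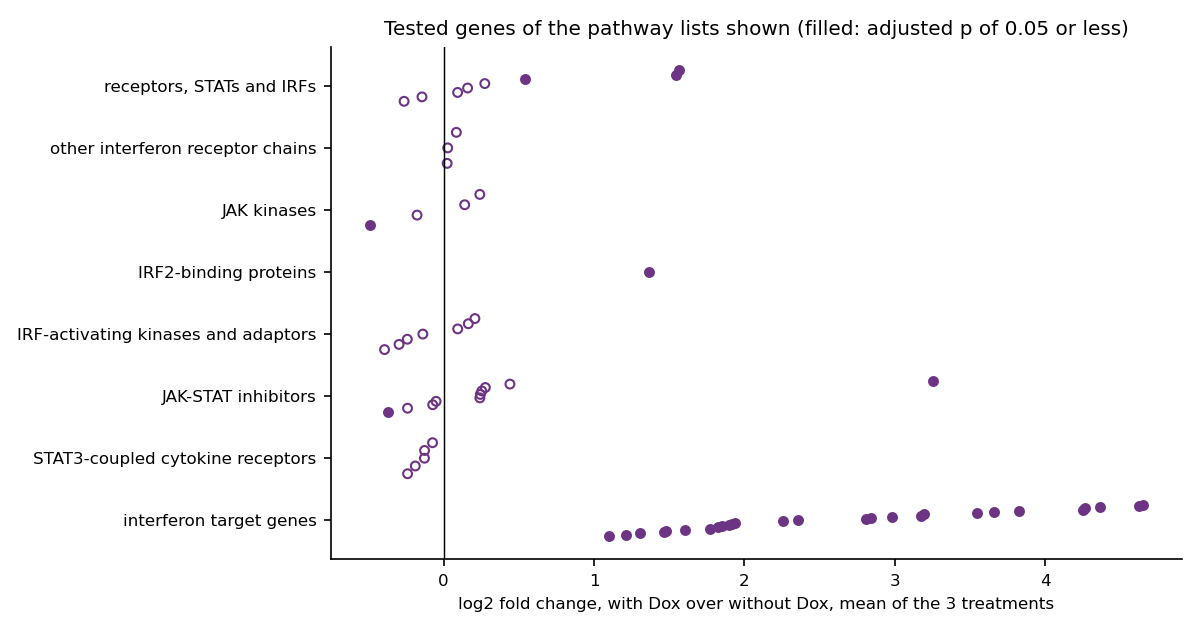
Log2 fold change with Dox, as the mean of the 3 treatments, of every tested gene of the pathway lists shown; filled points had an adjusted p of 0.05 or less in edgeR. The 27 interferon target genes lie from 1.1 to 4.65, and of the receptors, STATs and IRFs, Stat2 and Irf9 lie at 1.56 and 1.54.

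The summed level of these 30 target genes was 432, 675 and 407 CPM in DMSO without Dox and 2017, 3846 and 3473 CPM with Dox, by replicate. Under ISO it was 295, 645 and 319.8 CPM without Dox and 1486, 3592 and 2771 CPM with Dox, and under SR-3420 368, 703 and 421 and 1864, 3971 and 3605 CPM. With Dox, replicate 1 was the lowest and replicate 2 the highest in every treatment, and without Dox replicate 2 was the highest. Stat2 was likewise lowest in replicate 1 with Dox in each treatment.

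Among the genes whose log2 CPM was most like that of Stat2 over the 18 libraries were Zbp1 (r = 0.97), Irgm2 (0.96), Lgals9 (0.95) and Mlkl (0.95). For Irf9 they were Uba7 (r = 0.92), Dhx58 (0.92), Mx1 (0.91), Pml (0.91) and Daxx (0.91), and for Irf1 they included Prkd2 (r = 0.84), Capn2 (0.80), Bnip1 (0.79) and Rilpl1 (0.76). Between members, Stat2 and Irf9 had r = 0.74 over the 18 libraries and 0.34 after the group means were taken out. Irf1 had r = 0.61 with Irf9 and 0.43 with Stat2, which fell to 0.14 and 0.15 after the group means were taken out. These are Pearson correlations that share libraries, Dox and depth, and they describe the table only.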

How the data were processed

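RNA of 18 libraries (6 groups of 3) was prepared by the authors from total RNA with a TruSeq kit, sequenced, aligned to mm9 with STAR 2.4.2a, reduced with HOMER to 1 read per position and length, and counted by gene with the iRNA-seq tool. What the authors deposited are raw counts, with gene span and counted bases. Groups were taken from the labels. The counts were fitted with edgeR 4.0.16 (R 4.3.3, limma 3.58.1): filterByExpr left 10178 of 17672 genes, libraries were scaled by TMM, 1 mean was fitted per group over all 18 libraries (12 residual degrees of freedom), and the two-sided quasi-likelihood test was adjusted (Benjamini-Hochberg) across the genes tested. A gene passed at an adjusted p of 0.05 or less. CPM use the TMM-scaled total, and likeness used log2 CPM with a prior count of 0.5. Alternatives were DESeq2 1.42.0, other scalings, filters, a replicate block and each library left out. Deviations of same-numbered libraries correlated at over 0.1 in all 3 pairs for ISO with Dox (0.149 to 0.243) and SR-3420 with Dox (0.115 to 0.226). They did so too for SR-3420 without Dox (0.122 to 0.252) and Dox under ISO (0.111 to 0.241), and in fewer pairs for the other comparisons of 2 groups. The pairing is read from these data. Blocked values are given where they change a tested call and for the ISO interaction of Stat2. For the Dox contrasts of the 8 genes they are given as counts, and for Irf3 under SR-3420 also as a value with SE. The fit was tested on simulated counts. Figures were drawn with matplotlib 3.10.9. The genes and lists were chosen with earlier results of these data known. All 9 receptors, STATs and IRFs were to be named, and of each other list at most 3 genes that passed in a Dox contrast, by the smallest p of the mean. The 300-base promoter windows were read from mm9. Intervals and floors cover counting error only where they rest on counts of 1 library. Some genes of the lists are not reported here.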

Additional observations from a re-analysis of the deposited data

Results flagged for a closer look

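Of the 8 receptors, STATs and IRFs, Abhd5 and the genes of the lists, 6 genes had a Dox difference that itself differed between treatments by the interaction test of edgeR, where 2.18% of all genes tested passed for ISO and 0.757% for SR-3420. For Irf2bp2 the log2 fold change with Dox under ISO exceeded that in DMSO by 1.49 (adjusted p = 0.0267), and under SR-3420 it exceeded that in DMSO by 1.43 (adjusted p = 0.0496); both terms share the DMSO libraries. The first was lost on leaving out any 1 of 6 libraries (values of 1.26 to 1.49), and the second in 20 of 25 alternatives. DESeq2 passed neither term. For Abhd5, the knocked-down and re-expressed gene, the Dox difference under ISO minus that in DMSO was -0.98 (adjusted p = 0.0194), and it was lost on leaving out replicate 1 of either group without Dox (-0.90 without the DMSO library, -0.87 without the ISO library) or DMSO with Dox replicate 2 (-0.88), and with library totals only (-0.95, adjusted p = 0.09 by edgeR). For the phosphatase gene Ptpn1 the same difference was -1.001 (adjusted p = 0.0182), and it was lost with library totals only (-0.97) and without DMSO with Dox replicate 1 (-0.83) or ISO with Dox replicate 1 (-0.93). The adipocyte markers Cidec (1.45, adjusted p = 0.000397), Fabp4 (1.92, adjusted p = 0.0251) and Adipoq (0.85, adjusted p = 0.0447) had a larger Dox difference under ISO than in DMSO. For Fabp4 only 73 bases were counted. DESeq2 passed 4 of the 6 adipocyte markers tested for this term, and no other alternative was run for these 3.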

How the results depend on the processing

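No direction reversed for a called value. Counts of the 8 genes in the Dox contrasts describe the settings only, since the genes were chosen on those contrasts. With at least 10 counts required in every library, 1 of the 8 genes passed with Dox in each of DMSO, ISO and SR-3420 (Irf9 was not in that table), and 1 (Ifnar1) for SR-3420 with Dox. With library totals only, 4 passed with Dox under SR-3420 (Ifnar1 and Irf3 gained), 5 for ISO with Dox (Irf2 and Irf9 gained), 1 for SR-3420 with Dox and 2 for ISO without Dox (Ifnar2 and Stat2 lost, Irf2 gained); this scaling shifted the median of all genes by -0.22, -0.14, -0.19 and -0.18 in log2. With only the groups compared, 1 passed with Dox under ISO. Requiring a log2 fold change of 1 as well left 1 (Stat3) in each ISO comparison. Leaving out 1 library gave 1 to 2 passing with Dox under ISO, 2 to 3 under SR-3420, 3 to 5 on the mean, 1 to 3 for ISO without Dox, 1 to 4 for ISO with Dox and 0 to 1 for SR-3420 with Dox (without SR-3420 with Dox replicate 3). Stat3 passed in both ISO comparisons in all 26 alternatives. With the replicate number as a block, 4 passed with Dox under SR-3420 (Irf1 and Irf3 gained). There the same-numbered pairs correlated at 0.0306 to 0.239, not all over 0.1. On the mean 5 passed with the block (Ifnar2 higher and Irf3 lower gained), with 5 for ISO with Dox and 1 for SR-3420 with Dox. The block changed no other member count. Over the groups of all comparisons, 34 of 45 same-numbered pairs correlated at over 0.1 (lowest 0.0306), and 18 of 18 libraries correlated best with their own number.

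Over all genes tested, the number passing moved with the replicate block from 120 to 271 with Dox in DMSO, 1175 to 1834 with Dox under SR-3420, 1008 to 1568 for SR-3420 with Dox, 222 to 600 for the ISO interaction and 77 to 339 for the SR-3420 interaction. Without a filter these were 191 with Dox in DMSO, 358 for the ISO and 156 for the SR-3420 interaction; with at least 10 counts in every library 62 passed with Dox in DMSO; and with library totals 130 and 42 passed in the interactions. The added fold limit left 477 of 1297 with Dox under ISO, 346 under SR-3420, 190 of 2088 on the mean, 1108 of 2846 and 1334 of 3309 for ISO without and with Dox, 316 for SR-3420 with Dox and 133 for the ISO interaction. For SR-3420 without Dox, 78 became 27 to 238, and 28 to 51 without replicate 1 or 3 of either group compared. Without SR-3420 with Dox replicate 1, 1175 became 757 with Dox under SR-3420 and 1008 became 639 for SR-3420 with Dox. Without DMSO without Dox replicate 1, 120 became 77 with Dox in DMSO. The ISO interaction went from 222 to 111 without that library or ISO with Dox replicate 1 and to 137 without ISO without Dox replicate 1. The SR-3420 interaction went from 77 to between 28 and 50 on leaving out 1 of 7 libraries: without Dox, any DMSO library or SR-3420 replicate 1 or 3, and with Dox, replicate 3 of DMSO or 1 of SR-3420. The causes were not tested. Irf9 was the 1 of the 8 genes that did not hold at least 10 counts in every library.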
